A study of Mus musculus with 14 samples.

Results

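H3K27me3 peaks whose mean over the control libraries is listed at 0, and whose mean over the NeuID knockdown libraries lies above 0, were examined in mouse primary hippocampal neurons. They were selected on the authors' 2 group means, and 777 of the 23668 listed peaks met the rule. Because the readout itself chose them, their low control level is a description and not a result, and no test accompanies it.

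The study asked by chromatin immunoprecipitation and sequencing (ChIP-seq) how H3K27me3 differs once the long noncoding RNA NeuID is reduced. Wild-type CD1 neurons came from hippocampi of E17 mouse embryos of mixed sex and were kept in culture. Gapmers, antisense oligomers that direct RNase H to a chosen RNA, were delivered in lipid nanoparticles. The NeuID knockdown cultures received 1 gapmer against NeuID and the control cultures a negative-control gapmer without a known target, and all cultures were fixed and precipitated with the same anti-H3K27me3 antibody (07-449, Millipore). By the labels there were 6 ChIP libraries of control and 6 of knockdown cultures, and 1 input library for each condition. Such cultures hold some glia besides neurons, and a single gapmer sequence represents the knockdown. The labels do not say which libraries came from separate cultures. Only H3K27me3 was used here, so the cell type could not be checked against marker RNAs, and a mark in fewer cells cannot be told apart from less mark per cell.

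H3K27me3 is the trimethylation of lysine 27 of histone H3, which Polycomb repressive complex 2 places through its catalytic subunit EZH2. In neurons the mark covers genes of other lineages and developmental regulators, above all where promoters are rich in unmethylated CpG. Outside such domains the mark also occurs weakly over genes and between them.

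To show what kind of sequence lay under these peaks, the central bases (up to 300) are given for the 3 peaks with the highest knockdown mean, for the peak with the most CpG per base and for the peak with the largest repeat-masked share. All are read on the plus strand of GRCm38 (the assembly that mm10 names), and the capitals mark every CpG. The Rgs6 intron peak is chr12:82947814-82948113, the Gm22522 peak is chrX:158432319-158432618 and the Gm4052 peak is chr13:72273830-72274129. The E130308A19Rik start peak is chr4:59626352-59626651 and the Dnajc24 intron peak is chr2:105970093-105970300.
Rgs6 intron peak: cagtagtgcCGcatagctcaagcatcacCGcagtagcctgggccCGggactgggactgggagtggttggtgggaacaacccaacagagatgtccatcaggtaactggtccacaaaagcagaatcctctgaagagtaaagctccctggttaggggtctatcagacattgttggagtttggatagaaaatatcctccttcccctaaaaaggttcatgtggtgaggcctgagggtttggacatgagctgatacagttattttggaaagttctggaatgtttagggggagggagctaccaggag
Gm22522 peak: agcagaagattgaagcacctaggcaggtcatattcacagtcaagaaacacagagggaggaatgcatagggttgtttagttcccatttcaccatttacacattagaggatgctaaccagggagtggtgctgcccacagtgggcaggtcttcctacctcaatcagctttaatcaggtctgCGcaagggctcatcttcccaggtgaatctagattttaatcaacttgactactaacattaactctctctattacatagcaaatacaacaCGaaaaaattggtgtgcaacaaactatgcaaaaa
Gm4052 peak: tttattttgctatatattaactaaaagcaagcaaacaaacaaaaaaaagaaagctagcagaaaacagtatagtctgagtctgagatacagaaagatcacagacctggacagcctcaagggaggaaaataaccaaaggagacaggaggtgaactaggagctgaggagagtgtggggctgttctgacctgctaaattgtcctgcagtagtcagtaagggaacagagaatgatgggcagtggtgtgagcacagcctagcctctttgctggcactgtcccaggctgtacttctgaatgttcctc
E130308A19Rik start peak: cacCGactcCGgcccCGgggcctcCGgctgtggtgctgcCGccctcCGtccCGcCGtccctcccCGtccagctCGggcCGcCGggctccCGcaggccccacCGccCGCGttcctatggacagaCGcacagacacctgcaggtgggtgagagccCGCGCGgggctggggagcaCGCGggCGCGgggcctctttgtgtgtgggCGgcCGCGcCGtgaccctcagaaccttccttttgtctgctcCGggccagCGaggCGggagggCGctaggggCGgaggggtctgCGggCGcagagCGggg
Dnajc24 intron peak: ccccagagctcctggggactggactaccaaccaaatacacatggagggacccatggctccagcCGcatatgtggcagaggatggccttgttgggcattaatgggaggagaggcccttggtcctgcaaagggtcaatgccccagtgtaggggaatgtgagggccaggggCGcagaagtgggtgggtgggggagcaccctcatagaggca
The 3 strongest peaks held 3, 2 and 0 CpG in 300 bases, whereas the CpG-richest peak held 36. The last sequence, 208 bases long, was repeat-masked over all of its 208 bases.

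The authors' means made the reads of each library visible. Every group sum behind these peaks was a sum of whole reads, each multiplied by a fixed factor for its library, and exactly 1 set of whole numbers gave the sum in all 777 peaks for the control and for the knockdown. The control mean held 6 libraries and the knockdown mean only 5, so 1 knockdown library of the labels did not enter, and which one is not shown. The paper's legend for its plot of the H3K27me3 principal components gives 5 per group, which differs from the 6 control libraries found here. The libraries are called control A to F and knockdown A to E here, by rising worth of 1 read, and these letters are not the labels' replicate numbers. A read counted between 0.811 and 1.10 normalized reads in control and between 0.825 and 1.31 in knockdown. Whether input reads had been subtracted before is not given in the sources used here, so a library at 0 had no read left in the peak. Total reads per library are not known.

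A control mean listed at 0 did not always stand for 0 reads, because the table lists every mean of up to 1 normalized read as 0 on the log2 scale. In 257 of the 777 peaks (33.1%) all 6 control libraries were at 0. The other 520 held control reads, with a median of 4 and at most 7 reads over the 6 libraries. Those reads fell in 1 control library in 305 peaks, in 2 in 162 peaks, in 3 in 47 peaks and in 4 in 6 peaks. At the edge of the rule, the 3 members with the most control signal had means of 0.999, 0.995 and 0.993 normalized reads, near Gm49732, Gm49729 and Gm26318. The 3 peaks just outside, near Gm45086, Fga and Dct, had control means of 1.01, 1.01 and 1.02 normalized reads (0.0089, 0.012 and 0.022 on the log2 scale). The rule therefore divided peaks that differed by less than the worth of 1 read in 1 library.

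The share of peaks chosen by the rule was 3.28% of the list, and nearly as many, 794, were listed at 0 in knockdown and above 0 in control. Across the 21616 peaks whose reads were recovered in both groups, every knockdown library exceeded every control library in 1.24%. Among the chosen peaks the number was 179 of 777, a count that follows from the choice. In the remaining peaks at least 1 knockdown library was no higher than the highest control library.

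The knockdown means of the chosen peaks, themselves used by the rule, ran from 2.19 to 4.70 (log2), and the median, 3.31, stood for 9.89 normalized reads per library. The knockdown total was at least 18, at most 108 and at the median 43 reads over the 5 libraries. As a comparison served the 16641 peaks with both group means above 0 whose overall mean lay in the range the chosen peaks span, 1.10 to 3.56 on the log2 scale. Within that range the chosen peaks were the weaker ones, with a median overall mean of 2.24 against 2.77.

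The reads were spread unevenly over the knockdown libraries. The median peak had 4 reads in knockdown library A, 3 in B, 13 in C, 10 in D and 10 in E, while each of the 6 control libraries had a median of 0. Libraries C, D and E were the high ones, and A and B stayed far below them at the median. In the comparison peaks the medians were 4, 3, 8, 4 and 2 reads in knockdown libraries A to E and between 4 and 6 reads in the control libraries. The library with the most normalized reads was C, D or E in 740 of the 777 chosen peaks (95.2%) and in 83.8% of the comparison peaks.

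**Figure D1:**
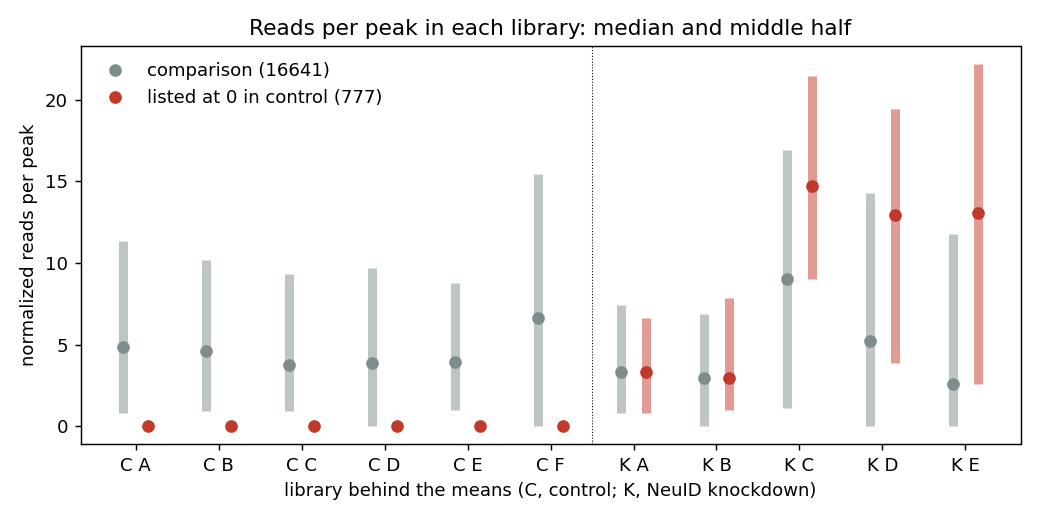
Normalized reads per peak (y axis) in the 6 control (C A to C F) and 5 knockdown (K A to K E) libraries behind the means. Dots are medians and bars run from the lower to the upper quartile of the peaks, red for the 777 peaks listed at 0 in control and grey for the 16641 comparison peaks, and the red dots lie at 0 in every control library and highest in K C, K D and K E.

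All 5 knockdown libraries had reads in 289 peaks (37.2%, against 22.9% of the comparison peaks). In 318 peaks 4 had reads, in 141 peaks 3 and in 29 peaks 2, and no peak had reads in only 1. The strongest library gave at the median 47.0% of a peak's normalized knockdown reads, and in 302 peaks (38.9%) it gave more than 50%. Both figures were higher in the comparison peaks, 53.1% and 57.5%, where the median knockdown mean was lower, 2.74 against 3.31 (log2). Zeros were also common where the mark was listed in both groups, since 22.9% to 26.8% of the comparison peaks had no read in a given control library and 23.1% to 39.1% none in a given knockdown library. In the chosen peaks 10.8% to 23.2% were at 0 in a given knockdown library and 79.7% to 85.2% in a given control library.

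**Figure D2:**
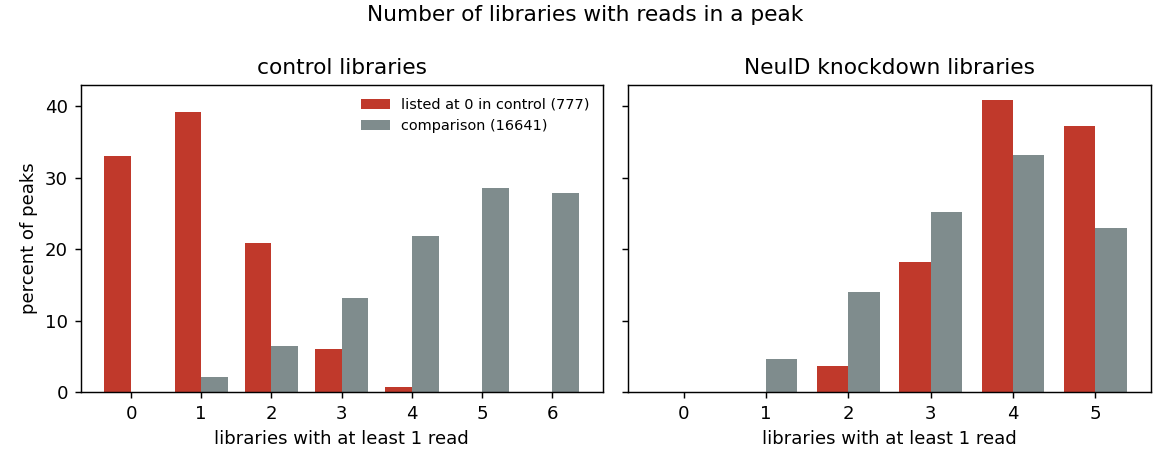
Percent of peaks (y axis) by the number of libraries with at least 1 read (x axis), for control on the left and NeuID knockdown on the right, in the 777 peaks listed at 0 in control (red) and the 16641 comparison peaks (grey). The red bars for control end at 4 libraries, and the red bars for knockdown begin at 2.

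The strongest of these peaks (chr12:82947658-82948268) lay in an intron of Rgs6, a regulator of G protein signalling, 8503 bp from the start of the antisense gene 1700085C21Rik. It had 0 reads in each of the 6 control libraries and 11, 3, 26, 50 and 18 reads in knockdown libraries A to E. All 5 knockdown libraries were above all 6 controls, and library D held the most. Its knockdown mean was 26.0 normalized reads, or 42.5 per kb of peak.

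The next peak (chrX:158432179-158432757) was intergenic, 59097 bp from the snoRNA gene Gm22522. Control library B held 2 reads and the other 5 controls none, and the knockdown libraries A to E held 12, 6, 52, 11 and 23 reads. The groups did not overlap, and library C was the highest. Per kb the knockdown mean was 41.1 normalized reads.

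The third peak (chr13:72273545-72274413), also the widest of all at 869 bp, was intergenic and 75808 bp from the processed pseudogene Gm4052. All 6 controls were at 0, and the knockdown libraries held 14, 3, 32, 30 and 21 reads. Another listed peak began only 84 bp away and did not share this pattern, for its control mean of 17.9 normalized reads was above its knockdown mean of 8.58. That neighbour held 8 to 42 reads in the control libraries and 12, 7, 0, 0 and 20 in the knockdown libraries, so libraries C and D, the high ones in the chosen peak, were at 0 next to it.

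The fourth peak (chr2:36203971-36204812) overlapped an exon of the transcript gene Gm13429. Its controls were all at 0, and its knockdown reads were 19, 23, 35, 23 and 5, with library E the lowest. The fifth (chr17:27427471-27427976) lay in an intron of Grm4, a metabotropic glutamate receptor gene, with 2 reads in control library C and 15, 30, 40, 8 and 11 reads in knockdown. It stood 13 bp from a peak of 2070 bp with nearly equal group means, 48.1 normalized reads in control and 51.8 in knockdown.

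Width followed strength. The chosen peaks were 179 to 869 bp wide with a median of 306 bp, against 382 bp in the comparison peaks and 352 bp in the peaks listed at 0 in knockdown. The difference from the comparison peaks was -76 bp (95% interval -85.2 to -64.8, over peaks and not over libraries). Under 300 bp were 47.6% of the chosen and 23.2% of the comparison peaks. Once the comparison peaks were weighted to the same distribution of the overall mean, their median was 299 bp and the difference turned to 7 bp. In the lowest of 5 bins of the overall mean the medians were 232.5 bp for the chosen and 240.0 bp for the comparison peaks, and in the highest bin 465 and 444 bp. At a matched overall mean the chosen peaks were therefore not narrower. The knockdown means were not matched by this, with medians (log2) of 2.72 against 1.82 in the lowest bin and 3.93 against 3.01 in the highest.

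Besides the Gm4052 and Gm13429 peaks, the widest were a peak of 824 bp (chr9:68475132-68475955), a peak of 735 bp in an intron of Phactr1 (chr13:42837155-42837889) and a peak of 733 bp over the start of Tmem255b. The first of these had 2 and 3 reads in control libraries A and D and 21, 24, 28, 20 and 8 reads in knockdown A to E. The Phactr1 peak, in the gene of a phosphatase and actin regulator, had 3 reads in control A and 16, 1, 8, 14 and 42 reads in knockdown, and its groups overlapped because of library B. At the other end, the 3 weakest peaks, near Gm10518, Gm12519 and Gm22499, were 202, 180 and 179 bp wide and had 2.19, 2.21 and 2.23 as knockdown means on the log2 scale. Each had no read in 2 of the 5 knockdown libraries.

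**Figure D3:**
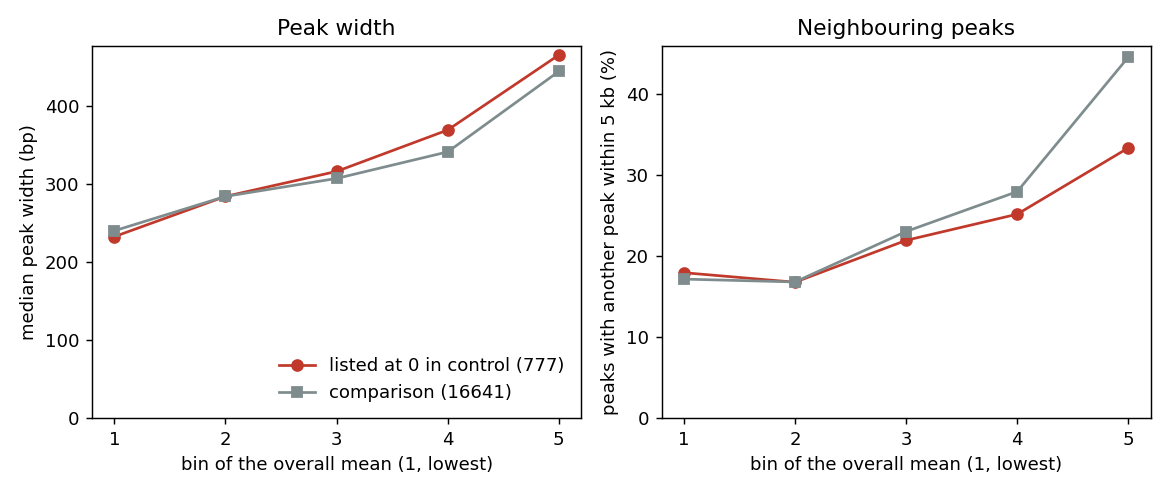
Median peak width in bp (left, y axis) and percent of peaks with another listed peak within 5 kb (right, y axis) over 5 bins of the overall mean that hold equal numbers of chosen peaks, 1 being the lowest. Red circles are the peaks listed at 0 in control and grey squares comparison peaks in the same bin, and the 2 lines run close together except for neighbours in the highest bin, with 33.3% against 44.5%.

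Most of these peaks lay away from genes' starts. Intergenic were 369 of 777 (47.5%), in introns 278 (35.8%), in coding exons 48 (6.18%), in other exons 24 (3.09%), and within 1 kb of a gene start 58 (7.46%). The median distance to the nearest start of any gene was 15604 bp against 13213 bp in the comparison peaks. Promoter peaks were fewer than in the comparison, 7.46% (95% Wilson interval 5.82 to 9.53) against 10.0%, and far fewer than in the whole list, 15.1%. With the comparison weighted to the same overall means its promoter share was 7.48%, so that the difference of -2.57 percentage points fell to -0.017. Intergenic shares were 47.5% and 46.7%, a difference of 0.81 percentage points with an interval of -2.76 to 4.41.

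The underlying sequence was mostly poor in CpG, as it was in the comparison peaks. GC content had a median of 47.5% against 48.4% in the comparison peaks, and the observed-to-expected CpG ratio 0.183 against 0.194. CpG-rich, meaning a ratio of at least 0.6 and a GC content of at least 50%, were 23 of the 777 peaks (2.96%, interval 1.98 to 4.40), beside 3.96% of the comparison peaks and 7.79% of all listed peaks. Weighted to the same overall means, the comparison gave 2.63%. The printed E130308A19Rik peak was among the 23, with 13.5 CpG per 100 bases over its whole width against 0.995 in the median peak.

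The measures of repeat content did not all go the same way. The median repeat-masked share was 10.1% against 11.2%, 85 peaks (10.9%) were masked over more than 50% of their bases against 9.36%, and 207 peaks (26.6%) had no masked base against 20.2%. Short motifs were searched on both strands in the central 200 bp of each peak. CACACACA was in 5.92% of the chosen and 5.47% of the comparison peaks, GAGAGAGA in 2.57% and 3.61%, GCGCGC in 0.772% and 1.32%, and CCAAT in 26.3% and 24.4%. In all listed peaks these shares were 5.35%, 3.43%, 2.55% and 23.7%.

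**Figure D4:**
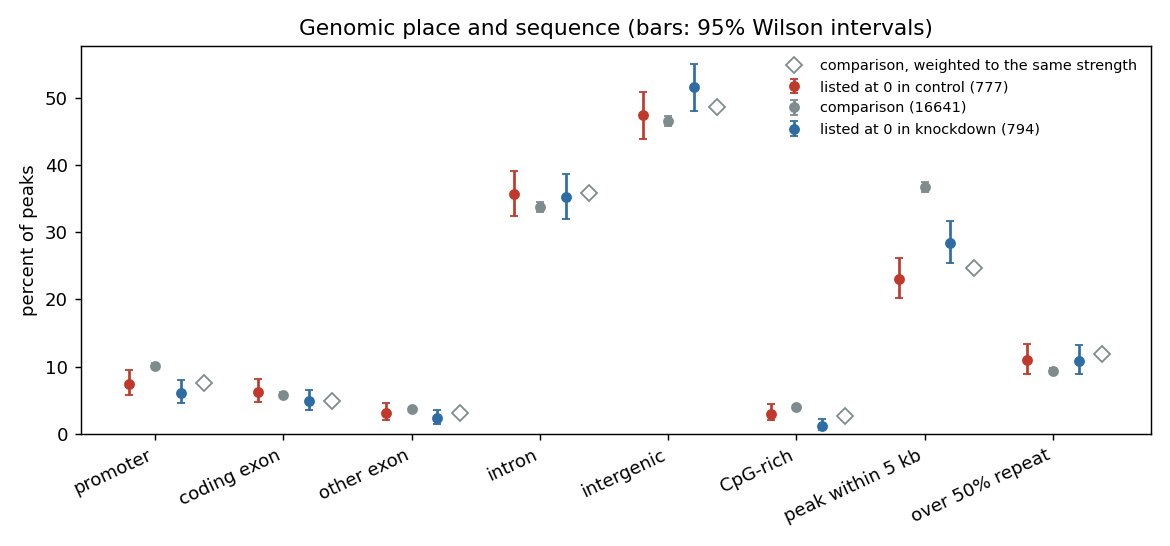
Percent of peaks (y axis) in each genomic place or sequence class (x axis) for the peaks listed at 0 in control (red), the comparison peaks (grey) and the peaks listed at 0 in knockdown (blue), with 95% Wilson intervals. Open diamonds are comparison peaks weighted to the same overall means, and they lie inside the red interval in all 8 classes shown.

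The 31 peaks within 1 kb of a protein-coding start, 3.99% against 6.48% in the comparison, were examined by gene. The strongest lay over the start of Tmem255b (chr8:13434470-13435202), a gene for a membrane protein. It had 3 reads each in control libraries A and F and 7, 22, 55, 12 and 0 reads in knockdown A to E. Knockdown library C alone stood far above the rest, and the groups overlapped because library E was at 0.

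The E130308A19Rik peak (chr4:59626231-59626771), whose CpG-rich sequence is printed above, began 20 bp from the gene start. Its 6 controls were at 0 and its knockdown reads were 32, 27, 11, 18 and 0. Here libraries A and B, low at the median of all chosen peaks, had the most reads. No other listed peak lay within 129302 bp.

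The Cryge peak (chr1:65051881-65052219), 732 bp from the start of a gene for a lens crystallin, held 5 reads in control library E and 18, 11, 19, 2 and 28 in knockdown A to E. The Cad peak (chr5:31055285-31055629), 505 bp from the start of the gene for the enzyme that begins pyrimidine synthesis, held 6 reads in control D and 21, 2, 3, 2 and 37 in knockdown. Its reads thus came mainly from 2 of the 5 libraries, and the groups overlapped. The peak over the start of Hpgd (chr8:56294398-56294731), which encodes a prostaglandin-degrading dehydrogenase, held 1 read in control C and 17, 6, 8, 13 and 20 in knockdown, with no overlap.

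The Abcg5 peak (chr17:84681896-84682223), at a sterol transporter gene, held 4, 1 and 1 reads in control B, D and F and 2, 1, 28, 0 and 24 in knockdown. Only libraries C and E were above the controls there. Mlec (chr5:115158626-115159060), the gene of a lectin of the endoplasmic reticulum, had 5 and 1 reads in control B and C and 7, 15, 21, 15 and 0 in knockdown. At Ptchd3 (chr11:121830551-121830940), a patched-domain gene, 1 read in control A stood against 14, 19, 6, 20 and 0.

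Sapcd2 (chr2:25372686-25373176) had 1 and 3 reads in control B and D and 10, 21, 17, 6 and 5 reads in knockdown, and the groups did not overlap. At Cldn6 (chr17:23678893-23679316), which encodes a tight junction protein of early epithelia, 2 reads in control D stood against 9, 19, 0, 12 and 13. Of these 10 peaks the knockdown libraries all exceeded the controls in Hpgd and Sapcd2, and in 6 of the others library E or C or D was at 0.

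**Figure D5:**
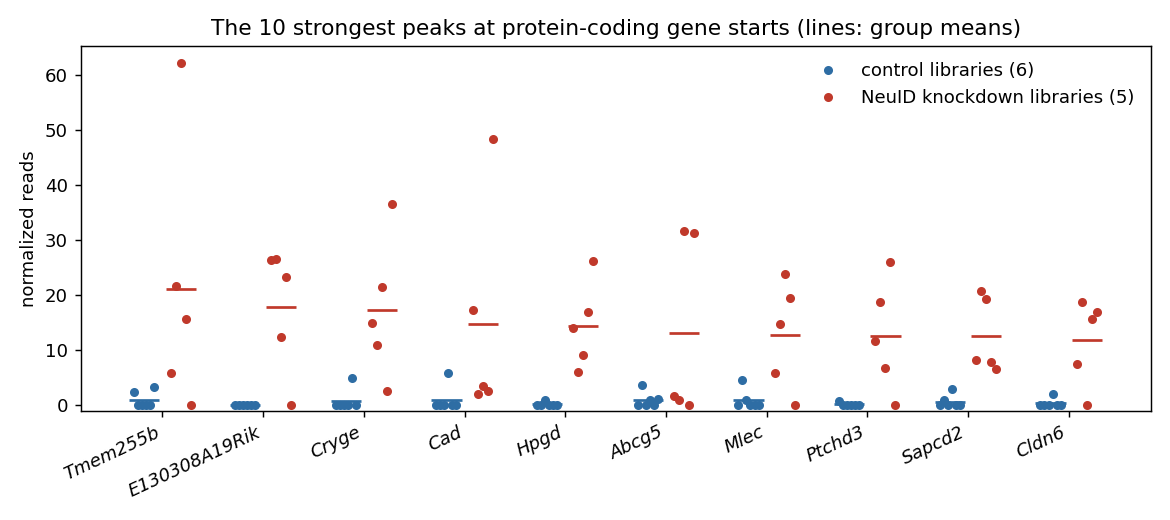
Normalized reads (y axis) at the 10 peaks with the highest knockdown mean within 1 kb of a protein-coding start (x axis), with 6 control libraries (blue) and 5 knockdown libraries (red) as points and group means as lines. Control points lie between 0 and 6 normalized reads, and single knockdown points lie far above the others at Tmem255b and Cad.

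The remaining 21 starts, named here after their values had been seen, were those of Ebf1, Dexi, Oprk1, Alpl, Iqcf6, Epas1, Epha1, Thy1, Krcc1, Syt12, Apobr, Ccl3, Rfx2, Rbm11, Resp18, Plbd2, Lpar5, Ret, Guca2b, Gzma and Gm11634. CpG-rich peaks among them marked Ebf1, a transcription factor of B cells and developing neurons, Alpl, the tissue-nonspecific alkaline phosphatase, and Epas1, a hypoxia-inducible factor. The same held for Thy1, a surface glycoprotein of mature neurons, for Syt12, a synaptotagmin, and for Ret, the receptor tyrosine kinase of GDNF-family ligands. Of the 10 strongest start peaks described above, those at E130308A19Rik, Hpgd, Mlec, Sapcd2 and Cldn6 were also CpG-rich. The Thy1 peak had 3 reads in control B and 2, 6, 0, 11 and 18 in knockdown. The Ret peak had 2 and 3 reads in control C and D and 2, 15, 2, 1 and 12 in knockdown. In both peaks the groups overlapped.

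Developmental transcription factors, the classical targets of Polycomb, were rarely the nearest gene. Of the 777 peaks 4 (0.515%, interval 0.200 to 1.32) had such a gene as the nearest start, against 389 of 16641 comparison peaks (2.34%), 10 of 794 peaks listed at 0 in knockdown (1.26%) and 4.62% of all listed peaks. Weighting the comparison by the overall mean gave 1.28% and weighting by mean and width 1.43%. The former lies inside the interval of the chosen peaks and the latter above it. By the nearest protein-coding start the counts were 25 (3.22%) and 1228 (7.38%).

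The 4 peaks were at a distance from their genes. The strongest, 29498 bp from Vax1, a homeobox gene of the ventral forebrain and optic nerve, lay at chr19:59140042-59140558. It had 4 and 1 reads in control B and E and 15, 2, 0, 12 and 27 reads in knockdown, with overlapping groups. The others, given because so few were found, were 21723 bp from Gsx1, a homeobox gene of ventral telencephalic progenitors, 16719 bp from Irx6 and 22067 bp from Tbx4, a T-box gene of the hindlimb. The Gsx1 peak had 4 and 2 control reads in libraries C and F and 7, 2, 35, 0 and 10 in knockdown. The Irx6 peak had 5 reads in control C and 8, 7, 9, 10 and 6 in knockdown, so that its groups did not overlap. The Tbx4 peak had no control read and 2, 0, 21, 0 and 12 knockdown reads.

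No chosen peak had a neurotransmitter receptor gene as its nearest start (Wilson interval 0 to 0.492%), against 104 of 16641 comparison peaks (0.625%). After weighting by the overall mean the comparison share was 0.433%, which lies inside that interval. By the nearest protein-coding start 4 chosen peaks (0.515%) fell to this list against 239 (1.44%), the Grm4 intron peak among them. Ion channel genes were nearest to 8 peaks (1.03%) against 0.847%. Among them, named without regard to the rule, were Scn4b, Kcnmb1, Kcng3, Trpv1, Kcnj1, Cacna1i and Kcnk13.

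Signalling genes were few. Wnt components were nearest to 3 peaks (0.386% against 0.409%), 2 at the Wnt receptor gene Fzd5 and 1 in an intron of the co-receptor gene Lrp6 (chr6:134511583-134511993). The Lrp6 peak had 6 reads in control E and 3, 1, 15, 19 and 9 in knockdown. Among BMP, FGF and hedgehog genes there were 2 peaks (0.257% against 0.240%), at Fgf17 and Fgfr4. The Fgf17 peak (chr14:70643278-70643607), 1010 bp from the start of this growth factor gene, had 3 and 2 reads in control A and E and 12, 10, 12, 3 and 13 in knockdown. It bordered at 233 bp on a peak of 1611 bp with means of 35.8 normalized reads in control and 33.2 in knockdown.

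A single proneural gene was found, Atoh1, the basic helix-loop-helix factor of cerebellar granule cell precursors and hair cells, against 50 comparison peaks (0.129% and 0.300%). The single glial gene was Cspg4, the NG2 proteoglycan of oligodendrocyte precursors, against 13 comparison peaks (0.129% and 0.0781%). The Cspg4 intron peak (chr9:56875639-56876056) had 3 and 2 reads in control A and E and 8, 7, 18, 0 and 18 in knockdown.

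Axon guidance genes were nearest to 3 peaks (0.386% against 0.379%), those of Sema5b, Epha1 and the netrin receptor Dcc. The Sema5b peak (chr16:35526088-35526353) had 1 read in control F and 10, 1, 19, 20 and 4 in knockdown. Adhesion and synaptic organizer genes were nearest to 4 (0.515% against 0.589%), Ctnna3, Opcml, Dscam and Dpp10. The intron peak of Ctnna3 (chr10:63464700-63465014), which encodes an alpha-catenin, had 4 and 1 reads in control B and D and 8, 4, 10, 20 and 20 in knockdown, and 70.5% of its bases were repeat-masked.

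Olfactory and vomeronasal receptor genes, silent outside sensory epithelia, were nearest to 4 peaks (0.515% against 0.757%), namely Vmn2r-ps72, Olfr1415, Olfr1253 and Olfr1445. The Vmn2r-ps72 peak (chr7:85642580-85642930) had 4 reads in control A and 3, 4, 33, 15 and 6 in knockdown. Matrix genes were nearest to 2 peaks (0.257% against 0.240%), Tnr for tenascin-R and Col28a1, and zinc finger Zfp genes to 2 (0.257% against 0.385%), Zfp46 and Zfp469. The Tnr peak (chr1:159485717-159485968) had 3 reads in control F and 12, 0, 12, 7 and 12 in knockdown. The Zfp46 peak (chr4:136276486-136276777) had 6 and 1 reads in control A and B and 7, 0, 16, 23 and 5 in knockdown. In the 11 lists with at least 1 chosen peak, the comparison's share weighted by the overall mean lay inside the 95% Wilson interval of the chosen peaks.

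Most nearest genes were nearest to only 1 chosen peak. The chosen peaks had 749 different nearest genes, of which 723 were nearest to 1 peak, 24 to 2 and 2 to 3. The latter 2 were the lincRNA gene 2610028E06Rik and Rora, a nuclear receptor gene. By the nearest protein-coding start there were 724 genes, and 3 of them were nearest to 3 or more peaks. Such counts were not made for the comparison peaks. Near 2610028E06Rik, the peaks at chr4:125939277-125939888 and chr4:125940817-125941108 lay 928 bp apart. The former had no control read and 12, 7, 26, 0 and 41 knockdown reads, and the latter 3 reads in control B and 7, 11, 14, 5 and 2 in knockdown, so the 2 neighbours differed in the order of their libraries. The third (chr4:125874643-125875005) had 4 reads in control C and 3, 10, 21, 4 and 3 in knockdown.

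In Rora the 3 intron peaks were 48280, 240797 and 247770 bp from the start. The strongest (chr9:68894583-68894965) had 3 reads in control F and 6, 9, 15, 9 and 7 in knockdown, without overlap. The second (chr9:68901556-68901887) had 1, 3 and 2 reads in control A, C and E and 1, 2, 8, 1 and 22 in knockdown, with overlap. The third (chr9:68702066-68702301) had 3 reads in control E and 5, 3, 11, 8 and 0 in knockdown. By chromosome the chosen peaks made up 1.94% of the listed peaks on chromosome 7, the lowest share, and 4.62% on chromosome 16, the highest. The Wilson intervals were 1.39 to 2.71 and 3.22 to 6.60. The share over all listed peaks, 3.28%, lay above the former interval and inside the latter. Chromosome X held 28 chosen peaks, 4.24% of its listed peaks. These shares were not weighted by the overall mean, and the lowest and highest were picked from all chromosomes.

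Most of these peaks had no other listed peak within 5 kb, and the same was true of the comparison peaks. Another listed peak lay within 5 kb of 179 of them (23.0%, interval 20.2 to 26.1) against 36.7% of the comparison peaks, and the median gap to the nearest listed peak was 27736 bp against 11945 bp. Weighting the comparison by the overall mean gave 24.7% and weighting by mean and width 25.9%, both inside the interval. Within 50 kb another listed peak was found for 491 chosen peaks (63.2%) against 74.7% of the comparison peaks, or 65.4% when weighted by the overall mean.

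The nearest neighbours of the chosen peaks were mostly not chosen by the rule themselves. Of the 179 within 5 kb, 165 had both means above 0, 4 (2.23%) were listed at 0 in knockdown and 10 (5.59%) were themselves listed at 0 in control. Among the 6115 neighbours of comparison peaks, 139 (2.27%) were listed at 0 in knockdown and 121 (1.98%) at 0 in control. The larger share listed at 0 in control beside the chosen peaks was not weighted by the overall mean. Chosen peaks nearest to each other, such as the pair near 2610028E06Rik, each counted the other. Counting all 179, the knockdown mean was the higher one in 88 (49.2%, interval 41.9 to 56.4), against 46.1% of the 6115. Among the 165 alone the knockdown mean was the higher one in 78 (47.3%, interval 39.8 to 54.9), and the median difference, knockdown minus control, was -0.047 on the log2 scale. For neighbours of the comparison peaks the figures were 46.1% and -0.085. Within 1 kb 26 of 65 neighbours (40.0%, interval 29.0 to 52.1) were higher in knockdown, with a median difference of -0.11. The shares for neighbours of comparison peaks lay inside these intervals, and all these peaks share the same libraries.

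Single loci went in either direction. Beside the Epas1 peak, with 3 reads in control B and 29, 9, 11, 3 and 0 in knockdown, a peak 157 bp away had means of 10.5 normalized reads in control and 13.0 in knockdown. The Ebf1 peak, with 4 and 1 reads in control A and F and 7, 12, 18, 1 and 14 in knockdown, stood 446 bp from a peak with 13.3 in control and 6.84 in knockdown. The neighbour of the Ret peak, 313 bp away, had 5.32 and 5.14. At Hpgd the next peak, 1285 bp away, had 9.35 in control and 2.97 in knockdown, the opposite order. Other neighbours were higher in knockdown, as the chosen peaks were. The peak 3259 bp from the Cldn6 peak had 3.31 normalized reads in control and 16.0 in knockdown, and the peak 2897 bp from the weakest of the Rora peaks had 2.48 and 9.08. Next to the Syt12 peak, 1676 bp away, the means were 5.09 and 11.1, and 600 bp from the Gm13429 peak they were 6.90 and 9.67.

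The 257 peaks without any control read resembled the 520 with a few. Their knockdown means had medians of 3.31 and 3.31 on the log2 scale, their widths 298 and 314.5 bp, their promoter shares were 7.00% and 7.69%, and 22.2% and 23.5% had a neighbour within 5 kb. The membership changed when single control libraries were left out. With 1 control library left out and the rule applied to the other 5, between 898 and 1222 peaks met it, of which 698 to 705 were among the 777. The highest number came without control library F, when 517 further peaks met the rule. With 1 knockdown library left out, 776 or 777 peaks met it. That count had little room to change, because the lowest knockdown mean was 4.57 normalized reads and the rule needs only a mean above 1.

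The peaks listed at 0 in knockdown were the nearest counterpart. Their median control mean was 3.27 (log2), and 321 of the 794 (40.4%) had no knockdown read at all. They were wider at the median, 352 bp, and their median overall mean was also higher, 2.44 against 2.24 (log2). The 2 groups were not matched for it. They had fewer promoters (6.05%, interval 4.59 to 7.92) and fewer CpG-rich peaks (1.13%, interval 0.597 to 2.14) than the chosen peaks. The intervals overlapped in both measures. Neighbours within 5 kb were found for 28.5% of them (interval 25.4 to 31.7).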

How the data were processed

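Per the paper's methods and the submitters' processing notes, the authors aligned single-end H3K27me3 ChIP-seq reads to mm10 (GRCm38) by Bowtie2. MACS2 gave broad peaks, and DiffBind served to compare the groups. Versions are not given in the sources used here. The deposited table holds log2 means of normalized reads per peak for the whole set, for control and for NeuID knockdown. It also holds the authors' own fold change, p-value and FDR, which were not used. The number of unused per-sample columns was 0. Input libraries were not analysed here.

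The smallest positive group sums gave the worth of 1 read in each of 6 control and 5 knockdown libraries, and whole reads were sought that gave each sum within 2e-11 normalized reads. Sums up to 155 were searched, which left 1878 control and 1401 knockdown sums of other peaks unsolved.

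All 23642 peaks on chromosomes lay within GRCm38, and 26 lay on scaffolds. Genes were those of GENCODE M21, read in the order promoter (within 1 kb of a start), coding exon, other exon, intron, intergenic, with an overlap of at least 1 bp. A start was the outermost start of the whole gene. Alternative transcript starts inside a gene were not counted, so a peak at such a start was classed by exon or intron. GC content and repeat-masked bases came from the RefSeq GRCm38 sequence. Gene lists are families of symbols, assigned by the nearest start.

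The members, gene lists and comparisons were chosen with earlier results of these data known. Named were the 5 strongest and the 5 widest peaks, the 10 strongest within 1 kb of a protein-coding start, the strongest of each list, the 3 weakest, the 3 just outside the rule and genes nearest to 3 or more peaks. Of these, 2 peaks are not reported here. No test was run, because the rule used the contrast and peaks are not replicates. Intervals are 95% (Wilson for shares, order statistics for medians) and cover counting over peaks only. Alternatives were weightings by the overall mean in 20 bins and by mean and width, other ranges, limits and gene assignments, and autosomes. Leaving out each library, and keeping only peaks without control reads, were added after seeing the data. Scripts were tested on simulated data. Software comprised Python 3.11.15 with pandas 2.3.3, numpy 2.4.6, SciPy 1.17.1, pysam 0.24.0 and matplotlib 3.10.9.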

Additional observations from a re-analysis of the deposited data

Results flagged for a closer look

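Values of the libraries within a group were examined for a single library standing apart, by the gap of the extreme library to its nearest neighbour over the whole range of the group. Chance marks about 1 in 20 groups of values that are free to vary. That rate does not apply to the control values here, because the rule held them to at most 7 reads over 6 libraries, and reads in only 1 library, as in 305 of the 520 chosen peaks with control reads, give a ratio of 1 in every case. The control ratios are therefore given as values only. In 33 of the 42 named peaks with control reads, 1 control library stood apart. In 24 of them all control reads lay in that library, a ratio of 1, at Gm22522, Gm49789 (the Grm4 intron peak), Gm15812 (the Phactr1 intron peak), Cryge, Cad, Hpgd, Ptchd3, Cldn6, Lrp6, Sema5b, Vmn2r-ps72, Tnr, 2 peaks near 2610028E06Rik, 2 in Rora, Irx6, Kcnmb1, Kcng3, Trpv1, Cacna1i, Alpl, Epas1 and Thy1. In the other 9 the ratio was 0.702 at Abcg5, 0.799 at Mlec, 0.681 at Sapcd2, 0.737 at Vax1, 0.739 at Ctnna3, 0.810 at Zfp46, 0.703 at Gm10518, 0.664 at Gm12519 and 0.660 at Ebf1.

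In knockdown 1 of the 52 named peaks was marked. At Kcnj1 library E held 27 reads and the other 4 held 2, 0, 8 and 0, a ratio of 0.744.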

How the results depend on the processing

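No paired analysis was possible because the libraries recovered from the means carry no replicate number. Differences are chosen minus comparison peaks. Weighting by the overall mean turned the width difference to 7 bp and gave -0.017 percentage points for promoters, -0.061 for GC content, -1.62 for neighbours within 5 kb and -0.77 for developmental transcription factors. Weighting by mean and width gave -0.13, -2.86 and -0.92 for the last 3. With the range set by the higher group mean the differences were -112 bp for width, -5.00 for promoters, -2.98 for CpG-rich peaks, -20.8 for neighbours and -2.74 for transcription factors. Members with a knockdown mean of at least 3 gave -54.5 bp, neighbours within 1 kb -8.33, and the nearest protein-coding start -4.16 for transcription factors. With 1 library left out, width ran from -95.5 to -67.0 bp, promoters from -4.08 to -2.08, intergenic peaks from -0.30 to 2.35, GC content from -1.16 to -0.78, repeats from -1.17 to 0.046, CpG-rich peaks from -2.38 to -0.72, neighbours from -18.0 to -11.8, transcription factors from -2.25 to -1.46, the median knockdown mean from 3.11 to 3.51 and the number of peaks from 776 to 1222, the last without control library F. Other alternatives stayed within the interval of the reported value. The cause of these shifts was not tested.

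Depth limits what 0 means here. A control library at 0 in a peak of a few reads cannot be told apart from one with a weak mark, and 1 read decides whether a peak near the limit is listed at 0.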
